A study of Mus musculus with 6 samples.

Results

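The genes described here are 8 enzymes that make asparagine, proline, alanine, aspartate, glutamate or glutamine, or that use carbon from these amino acids: Asns, Aldh18a1, Pycr1, Pycr3, Pck2, Got1, Gpt2 and Glul. The genes were given as a list of symbols and looked up by Ensembl identifier in the deposited count table, where all 8 of 8 were found among 43271 genes (Pycr3 under its older symbol Pycrl) and all 8 passed the filter on low counts that kept 14101 genes. RNA came from primary endothelial cells of brain microvessels, the lining that separates blood from brain tissue, taken from WT mice (strain C57bl/6). Confluent monolayers were exposed for 24 h either to the vehicle DMSO, in 3 libraries, or to 5000 ng/ml of dolutegravir (DTG), a drug that blocks the integrase of HIV, in 3 libraries, and all grew in 1 medium with added L-glutamine, growth factors, hydrocortisone and 5% serum. The cultures were between passages 2 and 6, and the labels leave unsaid whether a group's libraries represent separate cultures or animals. The p-values therefore rest on library-to-library spread alone, which may be technical. Library names carry a tag, P4 or P5, that the labels do not define: DMSO replicate 1 and DTG replicates 2 and 3 carry P4, and DMSO replicates 2 and 3 and DTG replicate 1 carry P5. Replicate numbers here are those of the sample titles. The library names hold numbers of their own: in DMSO, replicates 1 and 2 are both named 1 and replicate 3 is named 3, while in DTG, replicates 1 and 2 are both named 2 and replicate 3 is named 3. The name of DTG replicate 1 spells the drug DIG, although its title and treatment label give DTG.

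Asparagine synthetase moves the amide nitrogen of glutamine onto aspartate to make asparagine. Proline is built from glutamate, from which the product of Aldh18a1 makes pyrroline-5-carboxylate in mitochondria. Reductases of the Pycr family, Pycr1 in mitochondria and Pycr3 in the cytosol, turn this intermediate into proline. The transaminases of Got1 and Gpt2 pass amino groups between glutamate and aspartate or alanine, Pck2 codes for the mitochondrial form of phosphoenolpyruvate carboxykinase, and Glul codes for glutamine synthetase, which joins ammonia to glutamate. Asns in particular is a textbook target of ATF4, a transcription factor whose translation rises when amino acids are short or proteins misfold in the endoplasmic reticulum (ER), and ATF4 with a C/EBP partner binds a composite element in the promoters of such genes. The title of the series asks about the drug, the endothelial barrier and stress of the ER.

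The core of that composite element, TGATGNAA, was searched on both strands of RefSeq promoter windows of 300 bases around each annotated start (GRCm38.p6, a build other than that of the counts, used here for sequence only). A window was found for 7 of the 8 genes, Pycr3 being without one, and 4 of these 7 held a match: Asns, Pycr1, Got1 and Pck2. Of all 27025 genes with a window, 4.51% held a match (3.97% of 32851 windows), and among the 53 genes with a window of 68 related genes on 5 pathway lists 1 did, Me3. The members were chosen with earlier results of these data known, and the motif after values or windows were seen. These shares are therefore a description and carry no test. The matches are printed on the strand that reads TGATGNAA, with the motif in capitals, because the changeable sixth base and the flanks are where they differ.
Asns site: ccagccacaTGATGAAActtcccgca
Pycr1 site: ccctgtgtaTGATGCAAtgcacaagg
Got1 site: aggcttgtaTGATGCAAccaatgcaa
Pck2 site: gtaagatacTGATGTAActttgaagg
The Asns site lies at chr6:7693216-7693241 on the gene's own strand, with the motif from base -23 to -16 counted from the start site. The Pycr1 site is at chr11:120643835-120643860, also on the gene's strand, from -103 to -96. The Got1 and Pck2 sites, at chr19:43524691-43524716 and chr14:55540154-55540179, read on the opposite strand, from -102 to -95 and from -103 to -96. Pycr1 and Got1 share the same 8 letters, whereas Asns and Pck2 each have another base at the variable position. The largest rises among the members, of Pycr1, Asns and Got1 (3.94, 3.18 and 2.53 log2), were in genes that held a match. Other members departed from this order, and a link between match and rise was not tested. Aldh18a1 and Gpt2 rose with dolutegravir (by 2.44 and 1.38 log2) and held no match, and Pck2, which holds one, had the smallest rise (0.54 log2). Of the 20 list genes with a window that rose at an adjusted p below 0.05 by edgeR, 0 held a match, and Me3 did not pass. A match is a description of letters and not evidence of binding, which was not measured.

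The 250 bases upstream of the start are printed for the 3 genes with the largest rises among those holding a match, and for Glul, the gene that fell, which has no match. Sequences run 5′ to 3′ on the gene's strand, so the Got1 motif appears as its reverse complement, and capitals mark the motif.
Asns upstream: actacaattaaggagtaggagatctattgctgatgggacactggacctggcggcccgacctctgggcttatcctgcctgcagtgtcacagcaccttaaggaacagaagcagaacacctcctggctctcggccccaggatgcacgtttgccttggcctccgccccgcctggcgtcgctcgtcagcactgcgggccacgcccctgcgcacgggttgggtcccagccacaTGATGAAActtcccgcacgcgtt
Pycr1 upstream: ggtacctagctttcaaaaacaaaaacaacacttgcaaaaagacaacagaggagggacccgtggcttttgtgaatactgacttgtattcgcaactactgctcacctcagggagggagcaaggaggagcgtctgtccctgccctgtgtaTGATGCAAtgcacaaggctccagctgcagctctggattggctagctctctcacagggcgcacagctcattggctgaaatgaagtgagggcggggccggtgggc
Got1 upstream: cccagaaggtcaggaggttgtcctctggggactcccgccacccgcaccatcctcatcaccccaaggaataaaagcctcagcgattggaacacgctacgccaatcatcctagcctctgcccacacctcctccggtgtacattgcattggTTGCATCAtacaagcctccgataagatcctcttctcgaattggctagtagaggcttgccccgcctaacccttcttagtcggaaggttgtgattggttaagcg
Glul upstream: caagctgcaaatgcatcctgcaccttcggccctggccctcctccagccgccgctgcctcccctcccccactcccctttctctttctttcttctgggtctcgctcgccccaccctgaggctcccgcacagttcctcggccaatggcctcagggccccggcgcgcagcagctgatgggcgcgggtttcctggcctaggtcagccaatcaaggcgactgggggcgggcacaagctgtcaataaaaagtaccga
The Asns stretch is chr6:7693210-7693459 (minus strand), the Pycr1 stretch chr11:120643749-120643998 (minus), the Got1 stretch chr19:43524606-43524855 (minus) and the Glul stretch chr1:153899679-153899928 (plus), all in GRCm38.p6. No window of the 7 genes held the ER stress response element (ERSE, searched on both strands), which occurs in 0.137% of all genes with a window. The E-box CACGTG, which reads the same on both strands, was found in the Aldh18a1 window from -59 to -54 and in 8.09% of all genes. No member's window held matches to different motifs, so no overlap could arise.

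**Figure D1:**
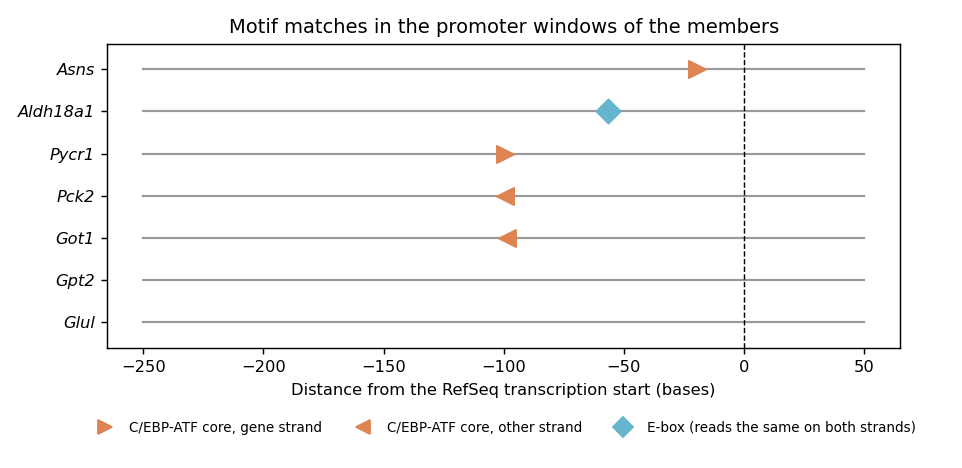
Position of motif matches in the promoter windows of the 7 members with a RefSeq window, as distance in bases from the annotated start (dashed line). Triangles are matches to the C/EBP-ATF core and point along the strand they read on; the diamond is an E-box. The matches of Pycr1, Got1 and Pck2 lie around 100 bases upstream of the start and that of Asns closer to it.

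Transcripts of 7 of the 8 enzymes took a larger share of the RNA with dolutegravir, and those of glutamine synthetase a smaller one. The rises spanned a wide range, from 1.45-fold for Pck2 to 15.4-fold for Pycr1, and in each of the 8 genes the DMSO and DTG libraries did not overlap. Of all 14101 genes tested, 56.7% passed edgeR's quasi-likelihood test at an adjusted p below 0.05, 27.4% as higher and 29.3% as lower. A rise of at least 1 log2 was called in 6.28% of genes and in 5 of the 8 members. Over all genes 64.2% had groups that did not overlap, with 31.1% entirely above and 33.1% entirely below the DMSO libraries. The members' median log2 fold change was 1.91, against -0.01 over all genes tested. These genes were chosen with earlier results of the same data known, so their count and median describe them and carry no test. Expression is given as CPM, counts scaled to a common library size, with library sizes adjusted by TMM, and in bulk RNA fewer cells of a kind and less RNA per cell cannot be told apart.

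**Figure D2:**
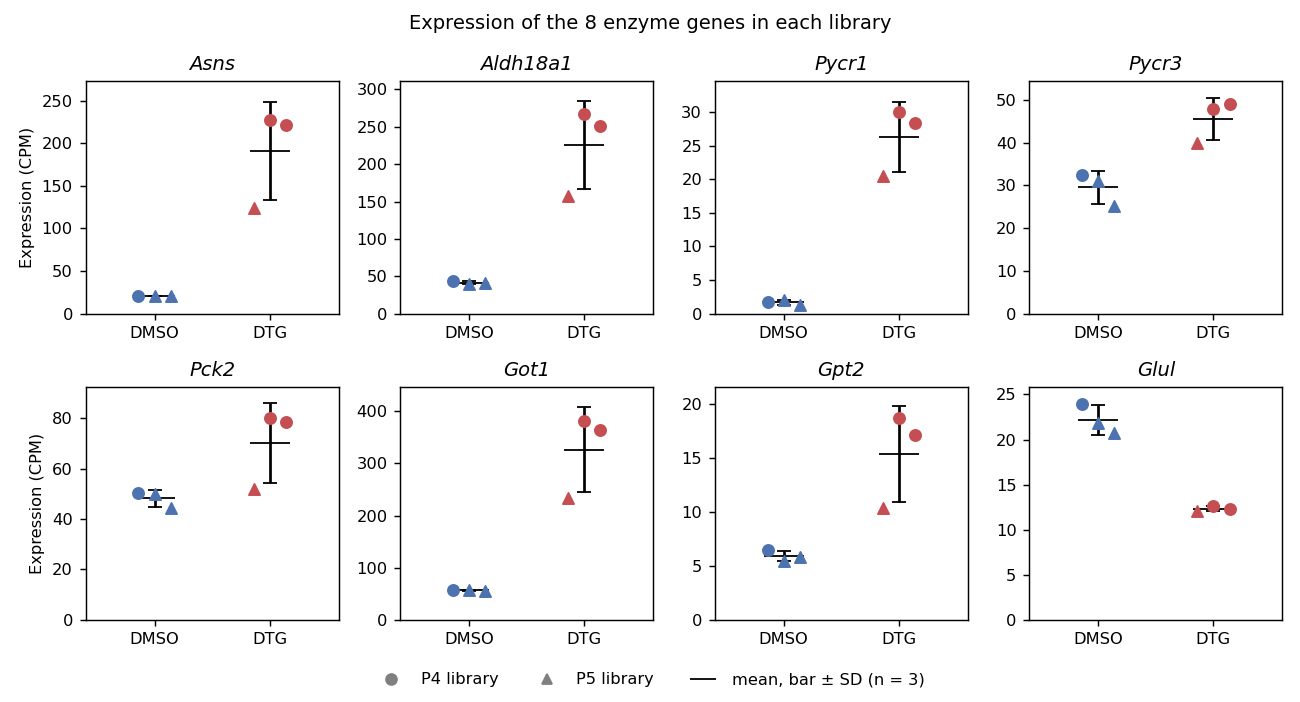
Expression of each of the 8 genes in every library (CPM, linear axis from 0, a separate scale for each gene), with circles for P4 and triangles for P5 libraries and the group mean with SD (n = 3). In 7 panels the DTG libraries lie above all DMSO libraries, with the P5 library of DTG lowest, and in the Glul panel they lie below.

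Asns, the enzyme of asparagine synthesis, was at 21.2, 21.1 and 21.0 CPM in DMSO replicates 1, 2 and 3, and at 124.6, 227.0 and 221.5 CPM in DTG replicates 1, 2 and 3. The DMSO libraries were nearly equal, and the DTG libraries split into 1 lower and 2 higher values, all far above DMSO. The fitted log2 fold change was 3.18 ± 0.22 (SE, adjusted p = 1.45e-05 by edgeR), which is 9.04-fold and the 133rd largest rise of 14101 genes. The genes that degrade asparagine went the other way at low levels: Aspg, an asparaginase, fell from 1.30 ± 0.34 to 0.469 ± 0.151 CPM (SD, n = 3 each), and Asrgl1, which cleaves asparagine and isoaspartyl peptides, fell from 1.06 ± 0.20 to 0.628 ± 0.087 CPM. The Asrgl1 call had an adjusted p of 0.0173 by edgeR and was lost with DESeq2 (adjusted p = 0.0569), and without DMSO replicate 1, DTG replicate 1 or DTG replicate 3 (adjusted p = 0.0719, 0.0514 and 0.0734 by edgeR).

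The proline genes rose unequally. Aldh18a1, which catalyses the entry step from glutamate, was at 43.8, 39.9 and 40.6 CPM in the DMSO libraries and at 157.8, 267.0 and 251.0 CPM in the DTG libraries. It rose by 2.44 ± 0.18 log2 (5.44-fold, adjusted p = 7.985e-06 by edgeR). Pycr1, a mitochondrial reductase of the last step, had few counts in DMSO, at 1.69, 2.04 and 1.34 CPM (265 counts in the 3 libraries together), and reached 20.4, 30.1 and 28.5 CPM in DTG (4004 counts). Its log2 fold change of 3.94 ± 0.19 was the largest of the 8 genes and ranked 89th among all genes tested (adjusted p = 2.50e-07 by edgeR). Pycr3, the cytosolic reductase, which is best known for taking pyrroline-5-carboxylate made from ornithine, moved far less. It was at 32.5, 31.0 and 25.1 CPM in DMSO and at 40.0, 48.0 and 49.0 CPM in DTG, a rise of 0.63 ± 0.12 log2 (1.54-fold, adjusted p = 0.00108 by edgeR).

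Got1, the cytosolic aspartate aminotransferase and a component of the malate-aspartate shuttle, was at 56.5, 57.8 and 54.7 CPM in DMSO and at 233.9, 381.1 and 364.6 CPM in DTG. Its DMSO libraries lay close together, and DTG replicate 1 was the lowest of the DTG libraries, still far above them. The rise was 2.53 ± 0.17 log2 (5.80-fold, adjusted p = 3.26e-06 by edgeR). Gpt2, the mitochondrial alanine aminotransferase, was low, at 6.46, 5.48 and 5.85 CPM in the vehicle libraries and 10.3, 18.7 and 17.2 CPM with the drug. It had DTG replicate 1 nearest to DMSO but no overlap, and rose by 1.38 ± 0.20 log2 (2.60-fold, adjusted p = 0.000275 by edgeR).

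Pck2 had the smallest rise and the narrowest separation. It was at 50.5, 49.9 and 44.5 CPM in DMSO and at 52.1, 80.0 and 78.4 CPM in DTG, so that DTG replicate 1 exceeded the highest DMSO library by 1.598 CPM only. The log2 fold change was 0.54 ± 0.15 (adjusted p = 0.0114 by edgeR), and without DMSO replicate 3 it was 0.48 with an adjusted p of 0.0544, the 1 of 16 alternatives that ended the call. Its cytosolic counterpart Pck1, the form known from liver gluconeogenesis, had 0 counts in the DMSO libraries and 1 in the DTG libraries and was not tested. Glul was at 24.0, 21.8 and 20.8 CPM in DMSO and at 12.1, 12.6 and 12.3 CPM in DTG. The DTG libraries were nearly equal, without the low DTG replicate 1 seen in the other genes, and Glul fell by 0.85 on the log2 scale (SE 0.09, 1.80-fold lower, adjusted p = 3.53e-05 by edgeR).

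Divided by the length of 1 principal transcript per gene (GENCODE M21), the order of the levels changed with treatment. In DMSO, Got1 was highest at 27.4 ± 0.7 CPM per kb (SD, n = 3), followed by Pycr3 (22.1 ± 2.9), Aldh18a1 (11.7 ± 0.6), Asns (10.5 ± 0.1), Pck2 (10.4 ± 0.7), Glul (7.95 ± 0.59), Gpt2 (1.63 ± 0.14) and Pycr1 (0.580 ± 0.121). Only Asns and Pck2 among these neighbours overlapped in their library ranges. In DTG the order was Got1 (159 ± 39), Asns (94.8 ± 28.6), Aldh18a1 (63.9 ± 16.7), Pycr3 (34.1 ± 3.7), Pck2 (15.2 ± 3.4), Pycr1 (9.03 ± 1.77), Glul (4.42 ± 0.09) and Gpt2 (4.23 ± 1.22), and the ranges of Asns and Aldh18a1 and of Glul and Gpt2 overlapped. Asns went from the 55.2 to the 94.3 percentile of all genes tested on this scale, Got1 from 79.9 to 97.0, and Pycr1 from 15.0 to 51.5. Glul went from the 48.1 to the 37.1 percentile.

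DTG replicate 1 stood apart from the other DTG libraries in the genes that rose. Its level was 55.6% of the mean of the other DTG libraries for Asns, 57.8% for Gpt2, 60.9% for Aldh18a1, 62.7% for Got1, 65.7% for Pck2, 69.8% for Pycr1 and 82.4% for Pycr3, but 97.3% for Glul. The same library lay nearest to DMSO on the first principal component of all genes tested (39.7, against 55.02 and 53.6 for the other DTG libraries and -50.1 to -49.0 for DMSO). It is also the only DTG library with the P5 tag, so the tag and this library cannot be told apart. Within P4 the differences of mean log2 CPM were 3.40 for Asns, 2.56 for Aldh18a1, 4.08 for Pycr1, 0.58 for Pycr3, 0.65 for Pck2, 2.72 for Got1, 1.46 for Gpt2 and -0.94 for Glul. Within P5 they were 2.56, 1.97, 3.597, 0.52, 0.14, 2.06, 0.87 and -0.81 in the same order, so each gene kept its direction and each was closer to 0. Without DTG replicate 1 all 8 calls stood, and the log2 fold changes of Asns, Got1 and Pck2 were 3.44, 2.76 and 0.75.

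The treatment by tag interaction was tested in 1 model over all genes. By edgeR 0 of 14101 genes passed (0%), with 1351 genes and 5 of the 8 members at an unadjusted p below 0.05. For Asns the P5 minus P4 difference was -0.84 ± 0.13 log2 (SE, adjusted p = 0.330 by edgeR), for Got1 -0.67 ± 0.13 (0.330) and for Aldh18a1 -0.59 ± 0.13 (0.382). DESeq2 called 80 genes (0.567%), among them these 3 members, with adjusted p = 0.000769 for Asns, 0.0113 for Got1 and 0.0483 for Aldh18a1. The size of the difference was thus alike in both tools while its call was not.

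**Figure D3:**
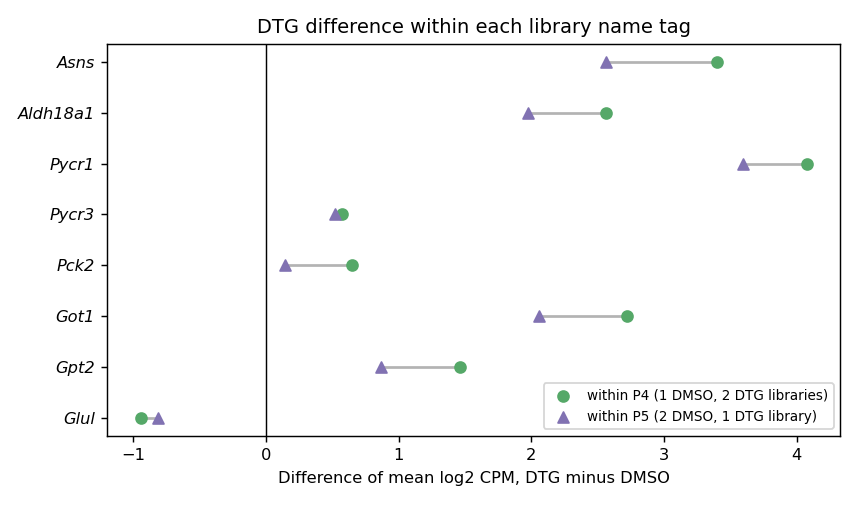
Difference of mean log2 CPM between DTG and DMSO within the P4 libraries (circles, 1 DMSO and 2 DTG) and within the P5 libraries (triangles, 2 DMSO and 1 DTG), with no error bars since an arm holds a single library. Each gene has the same sign in both, and the P5 value is closer to 0, most of all for Asns (3.40 and 2.56).

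Ratios of counts within a library do not depend on how libraries are scaled. Aspartate aminotransferase shifted from the mitochondrial towards the cytosolic transcript: the log2 ratio of Got1 to Got2 was -1.48, -1.47 and -1.51 in DMSO and -0.07, 0.60 and 0.60 in DTG. That is a difference of 1.87, with the groups apart and DTG replicate 1 nearest to DMSO. Got2 itself rose, from 158.1 ± 1.9 to 245.7 ± 5.8 CPM (SD, n = 3 each), by 0.64 ± 0.07 log2 (adjusted p = 3.12e-05 by edgeR). Between the proline reductases, the log2 ratio of Pycr1 to Pycr3 was -4.25, -3.92 and -4.22 in the vehicle libraries and -0.97, -0.67 and -0.78 with the drug. The groups were apart, and the difference was 3.32 log2.

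For alanine aminotransferase, the ratio of Gpt2 to Gpt, the cytosolic form, went from 1.24 ± 0.14 to 2.95 ± 0.65, while Gpt had mean levels of 2.51 ± 0.30 and then 1.93 ± 0.28 CPM and did not pass (adjusted p = 0.0846 by edgeR). Asns to Aspg went from 4.04 ± 0.35 to 8.64 ± 0.09, a difference of 4.60. In these 4 ratios the groups were apart, each with a two-sided exact permutation p of 0.1, the smallest that 3 against 3 libraries allow, and 0.133 after Benjamini-Hochberg adjustment over the 8 ratios computed. Pck2 to Pck1 overlapped (exact p = 1, adjusted 1) and rests on a single Pck1 count.

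**Figure D4:**
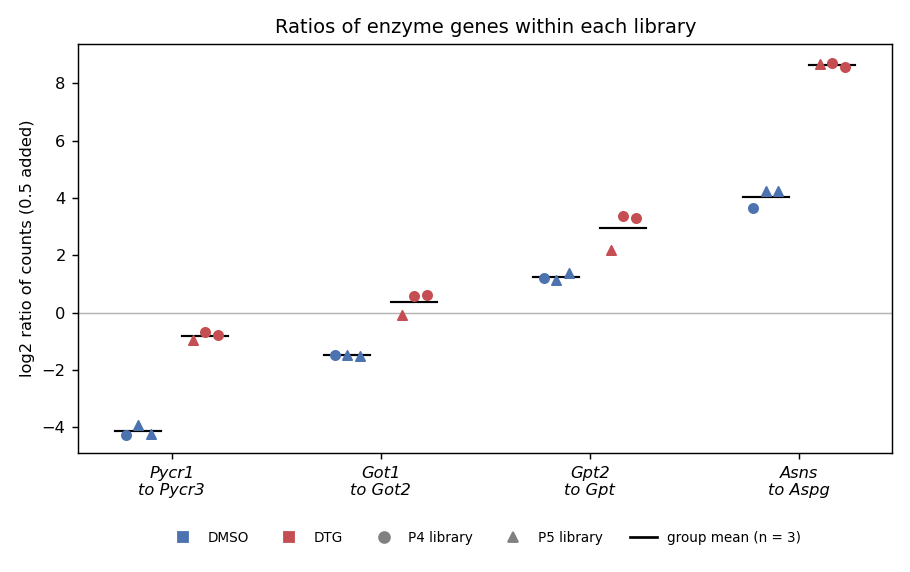
log2 ratio of counts of a pair of enzyme genes in each library (0.5 count added), DMSO in blue and DTG in red, circles for P4 and triangles for P5, with black lines at the group means (n = 3). Pycr1 to Pycr3, Got1 to Got2, Gpt2 to Gpt and Asns to Aspg were higher in all DTG libraries; Pck2 to Pck1 is left out because Pck1 had 1 count.

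The rest of the pathway moved in both directions. Of 68 genes on 5 lists of neighbouring metabolism, 56 were tested, 23 passed as higher, 16 as lower and 17 did not pass, with a median of 0.21 log2. Shares of 41.1% higher and 28.6% lower stand beside 27.4% and 29.3% over all genes. With library size alone as the scaling, which shifts the median of all genes by -0.17 log2, 18 passed as higher and 20 as lower.

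Of the 11 tested genes of asparagine and aspartate metabolism 2 rose and 5 fell, with a median of -0.12 log2. Besides Got2, the argininosuccinate synthetase gene Ass1, which joins aspartate to citrulline, rose from 91.1 ± 7.0 to 132.9 ± 16.7 CPM. Adssl1, an adenylosuccinate synthetase known from muscle, fell from 1.97 ± 0.09 to 1.02 ± 0.09 CPM. In proline and ornithine metabolism 3 of 10 tested genes rose and 2 fell, with a median of 0.22 log2. Oat, which converts ornithine to the proline precursor glutamate semialdehyde, rose from 63.0 ± 5.2 to 287.8 ± 44.4 CPM (2.19 ± 0.12 log2, adjusted p = 5.06e-07 by edgeR). Odc1, the ornithine decarboxylase of polyamine synthesis, rose from 426.0 ± 16.0 to 1085 ± 76 CPM. On the degrading side, Aldh4a1, which oxidises the product of proline breakdown to glutamate, fell by 0.47 log2 (from 15.8 ± 1.0 to 11.4 ± 0.8 CPM), and Prodh, the proline oxidase, was at 1.95 ± 0.10 and 2.29 ± 0.43 CPM and did not pass (adjusted p = 0.293 by edgeR). Without DTG replicate 1 Prodh passed as higher (0.42 log2, adjusted p = 0.0394 by edgeR). Arg1, an arginase, fell from 1.95 ± 0.30 to 0.386 ± 0.11 CPM.

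Of 12 tested genes of glutamate and glutamine metabolism 3 rose and 4 fell, with a median of 0.01 log2. Bcat1, the cytosolic branched-chain aminotransferase, which forms glutamate from 2-oxoglutarate, had 3.604 ± 0.559 CPM with vehicle and 255.8 ± 88.0 CPM with the drug, a rise of 6.15 ± 0.34 log2 (adjusted p = 1.04e-05 by edgeR) and larger than that of any of the 8 members. Psat1, the aminotransferase of serine synthesis, rose from 58.5 ± 2.3 to 339.3 ± 89.3 CPM, close to the fold of Got1 (2.54 and 2.53 log2). Among genes that release ammonia from glutamine or glutamate, the glutaminase gene Gls2 fell from 6.24 ± 0.91 to 3.64 ± 0.36 CPM, and Glud1, the glutamate dehydrogenase, fell from 201.0 ± 11.9 to 159.3 ± 1.6 CPM. Gad2, a glutamate decarboxylase known from inhibitory neurons, was counted at 100.9 ± 11.3 CPM in DMSO and fell to 67.0 ± 1.1 CPM, whereas its relative Gad1 had 0 counts in DMSO and 1 in DTG. The 6 neuron markers summed to at most 0.322 CPM in DMSO, and the strand setting of the counting is unknown, so the Gad2 value is uncertain; the origin of its reads was not tested.

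Among 10 enzymes that take the amide nitrogen of glutamine, as Asns does, 7 rose and 2 fell, with a median of 0.39 log2. Gfpt1, which opens the hexosamine pathway, rose from 89.8 ± 7.1 to 487.1 ± 159.9 CPM, Cad, the entry enzyme of pyrimidine synthesis, from 134.9 ± 3.7 to 289.1 ± 14.1 CPM, and Ctps, a CTP synthase, from 60.3 ± 2.9 to 102.8 ± 3.5 CPM. Of 13 tested genes around Pck2 (oxaloacetate supply, malate-aspartate shuttle and the steps beyond phosphoenolpyruvate) 8 rose and 3 fell, with a median of 0.27 log2. Pcx, the pyruvate carboxylase that makes oxaloacetate in mitochondria, fell from 63.0 ± 8.7 to 35.0 ± 5.1 CPM (0.85 log2 lower in DTG, SE 0.13, adjusted p = 0.000273 by edgeR). Of the shuttle genes, the cytosolic malate dehydrogenase gene Mdh1 rose from 142.7 ± 8.6 to 251.9 ± 12.8 CPM and the aspartate-glutamate carrier gene Slc25a12 from 83.1 ± 4.4 to 126.4 ± 13.6 CPM. The second carrier Slc25a13 rose by 0.27 log2 (adjusted p = 0.0389 by edgeR), but 7 of 16 alternatives ended that call. Leaving out DMSO replicate 1, DMSO replicate 2 or DTG replicate 2 gave adjusted p = 0.1204, 0.1001 and 0.0787 by edgeR, and the other 4 were upper-quartile factors (0.154), library size alone (0.422), no filter (0.0615) and the replicate block (0.0931). The mitochondrial glutamate carrier gene Slc25a22 rose by 0.43 log2, and the dicarboxylate carrier gene Slc25a10 fell from 51.5 ± 6.0 to 20.7 ± 2.8 CPM. Eno1, an enolase, rose by 0.87 log2, but its near-identical copy Eno1b, with 248.9 CPM in DMSO against 79.3 for Eno1, makes the split of its reads uncertain.

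**Figure D5:**
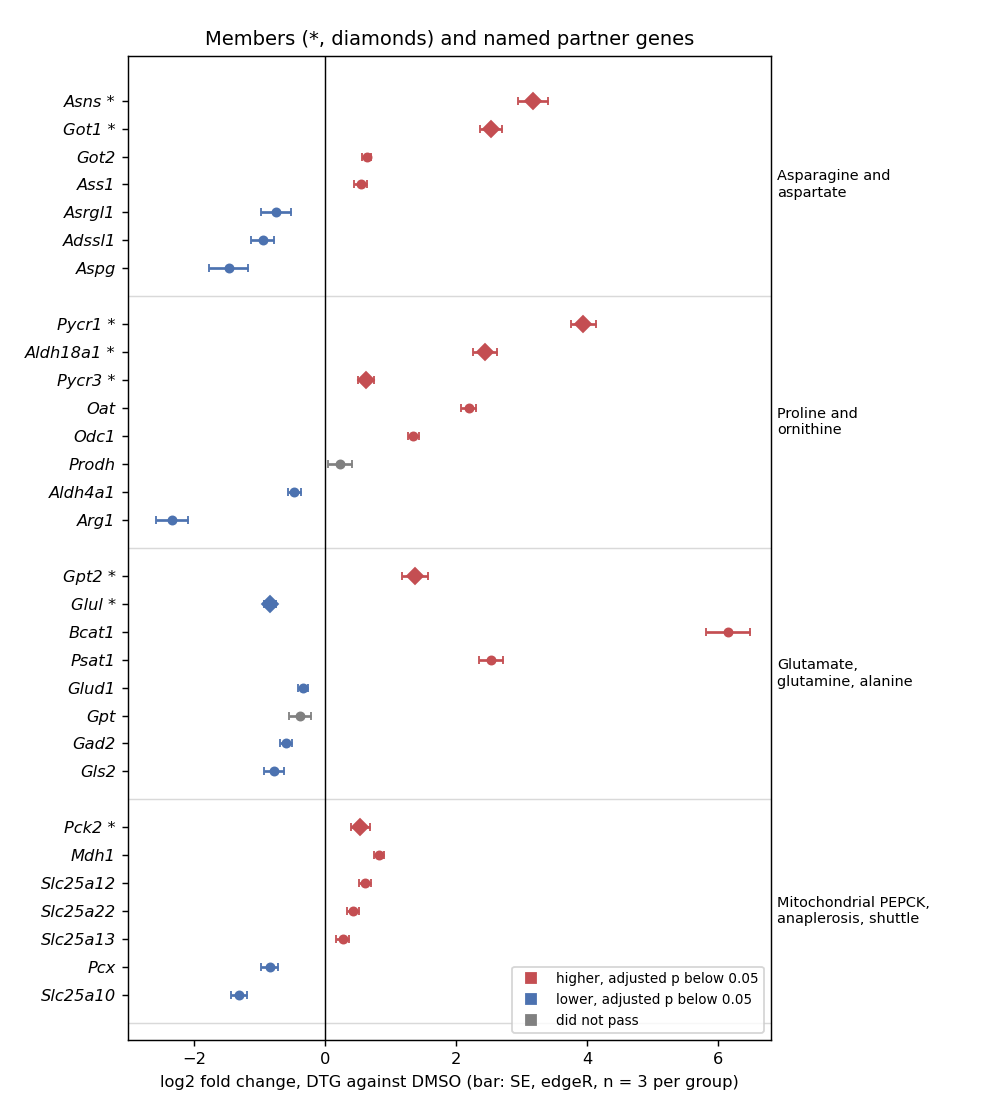
log2 fold change of DTG against DMSO with its SE (edgeR, n = 3 per group) for the 8 members (diamonds, marked *) and named partner genes, in red where higher and blue where lower at an adjusted p below 0.05 and grey where the gene did not pass. Asns, Pycr1 and Oat lie to the right and Aspg, Aldh4a1 and Gls2 to the left. Synthesis and breakdown do not divide cleanly. Glul, a synthesis gene, lies to the left (-0.85), and Prodh, of proline breakdown, lies to the right (0.23) but did not pass. Bcat1 is farthest right at 6.15.

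Across the 6 libraries, log2 CPM of Asns was most alike to that of Got1 (Pearson r = 0.9998). Others among the most alike were Chac1, which degrades glutathione (0.9997), Slc20a1, a phosphate transporter gene (0.9997), and Ftsj3, a ribosomal RNA methyltransferase gene (0.9996), out of 10319 genes with a mean of at least 5 CPM. These coefficients rest on 6 points that fall into the study's 2 groups and share libraries, and they are given as a description. Their log2 fold changes were 4.46 for Chac1, 2.83 for Slc20a1 and 0.93 for Ftsj3. Among the members, correlations with Asns were 0.999 for Aldh18a1, 0.992 for Pycr1, 0.975 for Gpt2, 0.939 for Pycr3, 0.871 for Pck2 and -0.967 for Glul.

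Total counts ranged from 41162353 to 56316335 per library, of which the 8 genes together took 0.0226% to 0.0253% in DMSO and 0.0622% to 0.0992% in DTG. Markers of endothelium were abundant, with 10 of 10 listed genes above 1 CPM and a summed level of 11159 to 12134 CPM in DMSO and 6835 to 7147 CPM in DTG, where 8 of 10 fell. Glul is also known as an astrocyte gene. Of 8 astrocyte markers Aqp4 had 0 counts, and Gfap, Slc1a2, Slc1a3, Aldh1l1 and Sox9 stayed under 1 CPM in every library. S100b fell, as Glul did, from 4.22 ± 1.11 to 1.86 ± 0.27 CPM (SD, n = 3 each), by 1.19 on the log2 scale (SE 0.21, adjusted p = 0.000836 by edgeR), and its part in the Glul result was not tested. The astrocyte sum of 60.8 to 68.4 CPM in DMSO and 204.7 to 250.9 CPM in DTG consisted nearly all of Gja1, a connexin that endothelium also expresses. Markers of pericytes and smooth muscle (10 genes, at most 2.57 CPM in sum, Rgs5 and Kcnj8 at 0), fibroblasts (6 genes, at most 8.68 CPM), oligodendrocytes (6 genes, at most 1.87 CPM, Mog and Olig2 at 0) and neurons (6 genes, at most 0.322 CPM in DMSO and 6.04 CPM in DTG, nearly all Tubb3, with Map2 at 0) were low. The 7 microglial markers summed to 23.6 to 29.5 CPM in DMSO and 6.26 to 7.74 CPM in DTG, almost all of it Tmem119, with P2ry12 and C1qa at 0.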

How the data were processed

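The values are whole-number counts for each Ensembl gene and library, deposited by the authors in a single table without normalization. Per the submitters' processing notes the build was GRCm39; aligner, counter, strand setting and annotation: not given in the sources used here. Without the strand setting, reads of overlapping antisense genes cannot be separated (those overlapping members held at most 8 counts). Per the labels' protocols, 2 µg of TRIzol RNA entered a stranded poly(A) kit. Names matched 38606 of 43271 identifiers (89.2%), and unmatched ones held 0.327% to 0.486% of a library's counts.

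R 4.3.3 and edgeR 4.0.16 were used: filterByExpr, TMM, quasi-likelihood F-test with robust dispersion, group as the only term, Benjamini-Hochberg adjustment over 14101 genes, threshold 0.05. The SE was taken as |log2 fold change| over the root of F. Alternatives were DESeq2 1.42.0, limma-voom (limma 3.58.1), other scalings, filters and terms, and leaving out each library. The pipeline was tested on simulated counts. Members, lists and the naming rule (8 members, 17 partners, the 3 smallest p-values of each list among genes that passed, 5 genes most alike to Asns) were chosen with earlier results of these data known; genes outside it (marker genes, Me3, Gad1, Eno1b) and the motifs were chosen after values or windows were seen. Counting error is minor at this depth, other than for genes holding few counts. Some genes and ratios that this rule names are not reported here. Figures used matplotlib 3.10.9 under Python 3.11.15.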

Additional observations from a re-analysis of the deposited data

How the results depend on the processing

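All 8 members kept their direction in each of 16 alternatives (DESeq2, limma-voom, scaling by RLE, by upper quartiles or by library size, a filter at 1 CPM, no filter, no robust estimation, the replicate block, the tag as a term, and each library left out), and 7 kept their call in each; Pck2 lost it without DMSO replicate 3 (adjusted p = 0.0544, range over alternatives 4.82e-05 to 0.0544 by edgeR, DESeq2 or limma-voom). With library size alone 2536 genes passed as higher in place of 3860, and higher calls made up 48.3% of calls under TMM, 38.2% under upper-quartile factors and 30.7% under library size. The replicate block gave 3543 higher and 3728 lower genes, with 7 members higher and 1 lower; same-numbered libraries correlated at -0.28, 0.01 and -0.05 in their deviations from the group means. These are the title numbers, for which the data show no pairing. By these deviations each DMSO library was most alike to a DTG library of its own tag (DMSO replicate 1 to DTG replicate 3, DMSO replicates 2 and 3 to DTG replicate 1). Deviations from a shared group mean are tied to one another, so these matches are not independent and carry no test. With the tag as a term every rising member had a smaller log2 fold change, such as 2.98 for Asns (3.18 without it), 1.17 for Gpt2 (1.38) and 0.40 for Pck2 (0.54). Glul was at -0.88 (-0.85 without it). The differing numbers in the library names were not used as a block. The treatment by tag interaction passed in 0 genes and 0 members by edgeR with TMM or with library size alone, and in 80 genes and 3 members by DESeq2; the cause was not tested. The Pck2 to Pck1 difference of -0.01 log2 became 0.19 with 1 count added and ranged from -0.38 to 0.47 when a library was left out, since it rests on 1 Pck1 count. Gpt passed as lower with upper-quartile factors, with library size alone and without DTG replicate 1 (adjusted p = 0.0405 and 0.0218 and 0.0383 by edgeR, range over alternatives 0.0218 to 0.291).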
